A study of Mus musculus with 6 samples.

Results

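Esr1+ neurons of the ventromedial hypothalamic nucleus (VMH) were selected by their counted transcripts from a single-nucleus RNA sequencing (nucSeq) survey of the mouse hypothalamus. A nucleus was taken as a VMH nucleus if it had at least 1000 unique molecular identifiers (UMIs, 1 per captured transcript), at least 1 UMI of Slc17a6 (the vesicular glutamate transporter VGLUT2), at least 1 UMI of Fezf1 or Nr5a1 (transcription factors that mark the nucleus), fewer than 2 UMIs of the GABA genes Gad1, Gad2 and Slc32a1 together, and fewer than 3 UMIs of Tac2 and Kiss1 together, which mark Esr1-expressing neurons of the neighbouring arcuate nucleus. It was Esr1+ with at least 2 Esr1 UMIs. Of 39665 nuclei, 1752 were VMH nuclei (4.417%) and 83 of these were Esr1+ (0.2093% of all nuclei). A further 1479 VMH nuclei had no Esr1 UMI and formed the comparison group, named Esr1-negative here, and 190 nuclei with 1 Esr1 UMI were in neither group. The 9 genes of the rule were left out of all tests, and their levels are given as a description.

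All mice were male C57Bl/6 wild type, 6 to 8 weeks old. Of these, 12 had free access to chow (ad libitum fed) and 6 were kept without food for 16 h overnight (fasted). Hypothalami were pooled from 6 mice before nuclei were isolated and sorted by their DNA stain, so the fed libraries 1 to 4 come from 2 pools prepared on separate days and the fasted libraries 1 and 2 from 1 pool. The sources used here do not say which fed libraries share a pool. No group held females, so all values describe males only.

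The libraries differed in depth and in what they held. Fed libraries 3 and 4 contained 59083864 and 59940795 UMIs, against 31757655 to 39556605 in the other 4. VMH nuclei made up 7.92% and 9.16% of nuclei in fed libraries 3 and 4, and 2.09% to 2.93% in the others. Esr1+ nuclei numbered 8, 1, 28 and 38 in fed libraries 1 to 4 and 6 and 2 in fasted libraries 1 and 2, with 58703, 9632, 333607, 489893, 75143 and 32983 UMIs in that order. Every Esr1+ value of fed library 2 is therefore that of 1 nucleus, which a doublet score also marked, as it did 7 of the 83. Between 5 and 17 cell barcodes were shared by any pair of libraries.

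The VMH is a cluster of glutamatergic projection neurons in the mediobasal hypothalamus. Its ventrolateral division carries Esr1, which encodes oestrogen receptor alpha, a transcription factor switched on by binding oestradiol. In the brain oestradiol is made from testosterone by aromatase, the product of Cyp19a1, so that males also supply the receptor with ligand. Esr1 neurons of the VMH are known for their part in mating and aggression and, in females, in energy expenditure and body temperature.

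Regional genes outside the rule separated the selected nuclei from GABAergic nuclei, and less clearly from other glutamatergic nuclei. GABAergic nuclei were those with at least 3 UMIs of Gad1, Gad2 and Slc32a1 together and 0 of Slc17a6. The selection thus set these groups apart in advance, and their difference cannot bear out the VMH label. Levels are given as CPM, the UMIs of a gene per 1000000 UMIs of the summed nuclei of a group. Adcyap1, the peptide PACAP made by many VMH neurons, stood at 87.0 CPM in Esr1+ VMH nuclei, 60.2 in Esr1-negative VMH nuclei and 5.28 in Esr1+ GABAergic nuclei, but at 52.9 in glutamatergic nuclei without a Fezf1 or Nr5a1 UMI. Nkx2-1, a transcription factor of the ventral hypothalamus, followed with 32.0, 29.2, 6.38 and 24.9 CPM, and Nptx2, a secreted synaptic protein, with 33.0, 38.9, 3.74 and 17.8 CPM in the same order. These levels sum libraries in unequal parts. Fed libraries 3 and 4 gave 28 and 38 of the 83 Esr1+ nuclei, but 1905 and 1858 of the 9434 other glutamatergic nuclei. In Esr1-negative nuclei, 23 peptide and granin genes summed to 2240 and 2304 CPM in these 2 libraries and 388 to 764 CPM elsewhere. The part of this mix in the levels was not tested. Of the 83 nuclei, 65 had a Fezf1 UMI, 24 an Nr5a1 UMI and 6 both. For 62 of them the VMH assignment rests on exactly 1 UMI of these genes. Oligodendrocyte nuclei, which should lack both genes, had such a UMI in 12 of 1376 nuclei (0.872%), at a median depth of 2455 UMIs against 11327 in Esr1+ VMH nuclei. This share was 0%, 2.82%, 3.57% and 3.13% in fed libraries 1 to 4 and 0.607% and 0.562% in fasted libraries 1 and 2. In fed libraries 3 and 4 it came from 1 of 28 and 1 of 32 nuclei. Of 12 VMH regional genes, 11 were tested between Esr1+ and Esr1-negative nuclei and 0 passed with edgeR or DESeq2. Over all 14680 genes tested, 0.620% were called with edgeR. At an unadjusted p under 0.05, 3 of the 11 were lower and 0 higher, beside 455 lower and 254 higher of all genes. The median log2 difference was -0.246, against -0.0354 over all genes tested.

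Esr1 itself was counted at 2 UMIs in 49 of the 83 nuclei, at 3 in 16 and at 4 to 11 in the rest, with a mean of 3.05 UMIs. Its level in the selected nuclei was 324, 415, 267 and 227 CPM in the fed libraries and 266 and 303 CPM in the fasted ones. Nr5a1 stood at 33.0 CPM in Esr1+ and 57.5 CPM in Esr1-negative nuclei, Fezf1 at 82.0 and 83.6 CPM, and Slc17a6 at 205 and 238 CPM. Of the genes the rule held low, Kiss1 stood at 5.0 CPM in Esr1+ nuclei (6.02% with a UMI) and 1.54 CPM in Esr1-negative nuclei (1.49%). Gad2 stood at 18.0 CPM (21.7%) and 12.5 CPM (12.1%), and Tac2 at 9.0 CPM (10.8%) and 7.49 CPM (6.83%). Gad1 stood at 3.0 and 4.90 CPM and Slc32a1 at 5.0 and 4.83 CPM. No Esr1+ nucleus held more than 1 UMI of any of these 5 genes, the median depth was 11327 UMIs in Esr1+ and 9436 UMIs in Esr1-negative nuclei, and these differences were not tested.

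Esr1+ VMH nuclei formed 4.74% of all VMH nuclei (exact 95% interval 3.79% to 5.84%, counting error only). The share was 4.55%, 0.610%, 5.56% and 6.51% in fed libraries 1 to 4, and 3.43% and 1.34% in fasted libraries 1 and 2. Both fasted values lay inside the range of the fed values. The mean share was 4.30% ± 2.59 (SD, n = 4 libraries) in the fed and 2.39% ± 1.48 (SD, n = 2 libraries) in the fasted group, a difference of -1.92 percentage points that did not exceed the spread between libraries (two-sided exact permutation test over libraries, p = 0.4667, where 4 against 2 libraries allow 0.0667 at the smallest). Libraries of a pool are technical repeats, and over the 2 fed pools and 1 fasted pool no p could go below 0.333. Counting every VMH nucleus with at least 1 Esr1 UMI, the difference was -0.0563 points. With nuclei thinned to 2000 UMIs it was -5.18 points (exact permutation test over libraries, p = 0.2667), from 8 of 207 nuclei. Oligodendrocyte nuclei reached 2 Esr1 UMIs in 5 of 1376 nuclei (0.363%), while glutamatergic nuclei without Fezf1 or Nr5a1 reached it in 424 of 9434 (4.49%) and GABAergic nuclei in 489 of 6144 (7.96%).

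**Figure D1:**
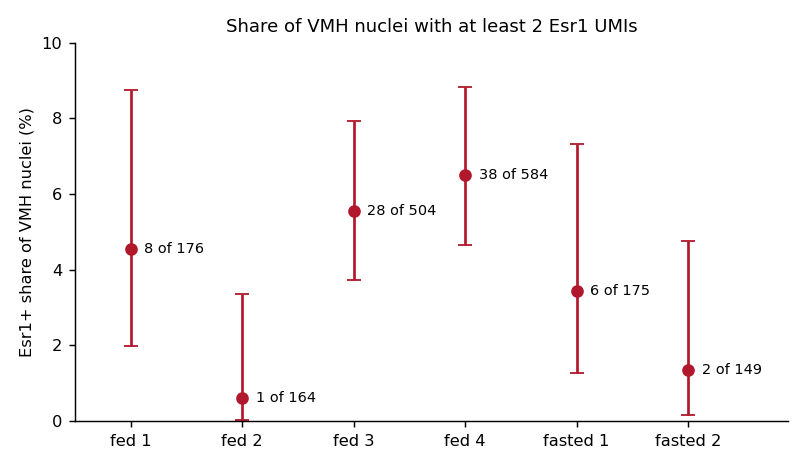
Share of VMH nuclei with at least 2 Esr1 UMIs, in percent, for each of the 4 fed and 2 fasted libraries, with exact 95% binomial intervals and the number of nuclei behind each point. The fasted libraries, at 3.43% and 1.34%, sit inside the fed range of 0.610% to 6.51%.

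Esr1+ and Esr1-negative VMH nuclei were then compared within pools, to find what separates the Esr1 neurons from their neighbours. The Esr1+ nuclei had more transcripts of aromatase, of the progesterone receptor, of the oestrogen-responsive gene Greb1 and of the nuclear receptor coregulator Nrip1, of the peptide gene Gal and of the channel genes Trpc5 and Kcnq5. They had fewer transcripts of the guidance and adhesion genes Cdh13, Epha5, Ntng1 and Robo1, of the potassium channel genes Kcnj3, Kcnb2 and Kcnh7 and of the glutamate receptor gene Grm5. Of 14680 genes tested, 91 (0.620%) passed an adjusted p of 0.05 with the edgeR quasi-likelihood test, 55 of them higher (0.375%) and 36 lower (0.245%) in Esr1+ nuclei. DESeq2 called 12 genes, all of them among the 91 and all higher, and without the pool as a block edgeR called 0 (334 genes at an unadjusted p under 0.05), with 2 residual degrees of freedom among samples in the main design. Leaving out 1 library gave 19 to 82 calls (19 without fed library 4, 21 without fed library 3, 31 without fed library 1 and 35 without fasted library 1), and of 42 called genes followed here 6 passed in each of these fits: Cyp19a1, Greb1, Pgr, Gal, Parm1 and Oxt.

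Cyp19a1, which encodes aromatase, stood furthest apart among the genes of steroid action. Its level in Esr1+ nuclei was 17.0, 0, 33.0 and 36.7 CPM in the fed libraries and 293 and 0 CPM in the fasted ones, against 2.4 to 6.3 CPM across the 6 libraries in Esr1-negative nuclei. Fed libraries 3 and 4 and fasted library 1 were high, the value of fed library 1 is that of 1 UMI, and the 2 libraries at 0 held only 1 and 2 Esr1+ nuclei. This made a log2 difference of 3.92 ± 0.43 (SE; edgeR, adjusted p = 4.7e-16). The transcript was seen in 16 of the 83 nuclei, with 25.0% of its UMIs in 1 nucleus of fasted library 1. Without that library the log2 difference was 2.99 (edgeR, adjusted p = 1.9e-06). Of 13 genes of steroid synthesis and breakdown, 7 were tested, Cyp19a1 was the only call, and the median log2 difference was -0.393. Among all genes tested, 0.375% were called higher and the median was -0.0354.

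Pgr, the progesterone receptor and a classic target of oestrogen receptors, was higher in every library. It stood at 119, 208, 126 and 106 CPM in the fed and 200 and 121 CPM in the fasted libraries in Esr1+ nuclei, and between 34.5 and 50.1 CPM in Esr1-negative nuclei. The ranges did not overlap, and the share of all genes with such ranges was not counted. For 0.634% of all genes tested, the Esr1+ value was the higher one within each of the 6 libraries, a looser criterion. Pgr differed by 1.46 ± 0.21 on the log2 scale (SE; edgeR, adjusted p = 4.1e-09). In the 6 Esr1+ nuclei that remain with Fezf1 plus Nr5a1 of at least 3 UMIs, the log2 difference was -0.0871. Of the 9 receptors for sex and adrenal steroids, 7 were tested outside the rule. Pgr was the only one of them called, where 0.375% of all genes tested were called higher. Esr2, the second oestrogen receptor, stood at 5.0 against 3.0 CPM.

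Greb1, a coregulator induced by oestrogen in many tissues, showed the second largest difference of this set. Its Esr1+ values were 34.1, 0, 27.0 and 49.0 CPM in the fed libraries and 79.8 and 60.6 CPM in the fasted ones. In Esr1-negative nuclei it stayed between 0.8 and 6.3 CPM, so that 5 of 6 libraries lay above that whole range and the exception was the single nucleus of fed library 2. On the log2 scale the difference was 3.54 ± 0.48 (SE; edgeR, adjusted p = 4.6e-10). Greb1 overlaps an antisense gene, Gm48140, and the sources used here do not say whether reads were counted by strand. Of the other called genes named here, Il1rap, Angpt1, Qrfpr, Galntl6, Pcdh17, Phactr1, Ptprm, Kcnh7, Cdh13, Tenm2 and Rai14 also overlap an annotated antisense gene, and Trpc5 overlaps Trpc5os on the opposite strand.

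Nrip1, which encodes the coregulator RIP140 that binds oestrogen receptor alpha, stood at 204, 415, 51.0 and 91.9 CPM in the fed and 120 and 182 CPM in the fasted libraries in Esr1+ nuclei. Esr1-negative values ran from 36.6 to 60.8 CPM, so 5 of 6 Esr1+ values lay above that range and fed library 3 lay within it. The log2 difference was 1.05 ± 0.21 (SE; edgeR, adjusted p = 0.00017), but the adjusted p was 0.19 without fed library 1, 0.53 without fed library 4 and 0.39 with DESeq2. It was the only call among 15 tested cofactors and chaperones of steroid receptors, whose median log2 difference was 0.0386. Among 12 genes listed for their response to oestrogen, 11 were tested, 10 lay above 0 and 3 passed (Pgr, Greb1 and Nrip1), with a median of 0.311. Over all genes tested, 6215 of 14680 lay above 0, 0.375% were called higher and the median was -0.0354. This list shares members with the other steroid lists and was chosen with earlier results of these data known, so its counts are a description. In GABAergic nuclei, 12 of its genes were tested between Esr1+ and Esr1-negative nuclei, 9 lay above 0, 5 were called higher and 0 lower, with a median of 0.0358.

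**Figure D2:**
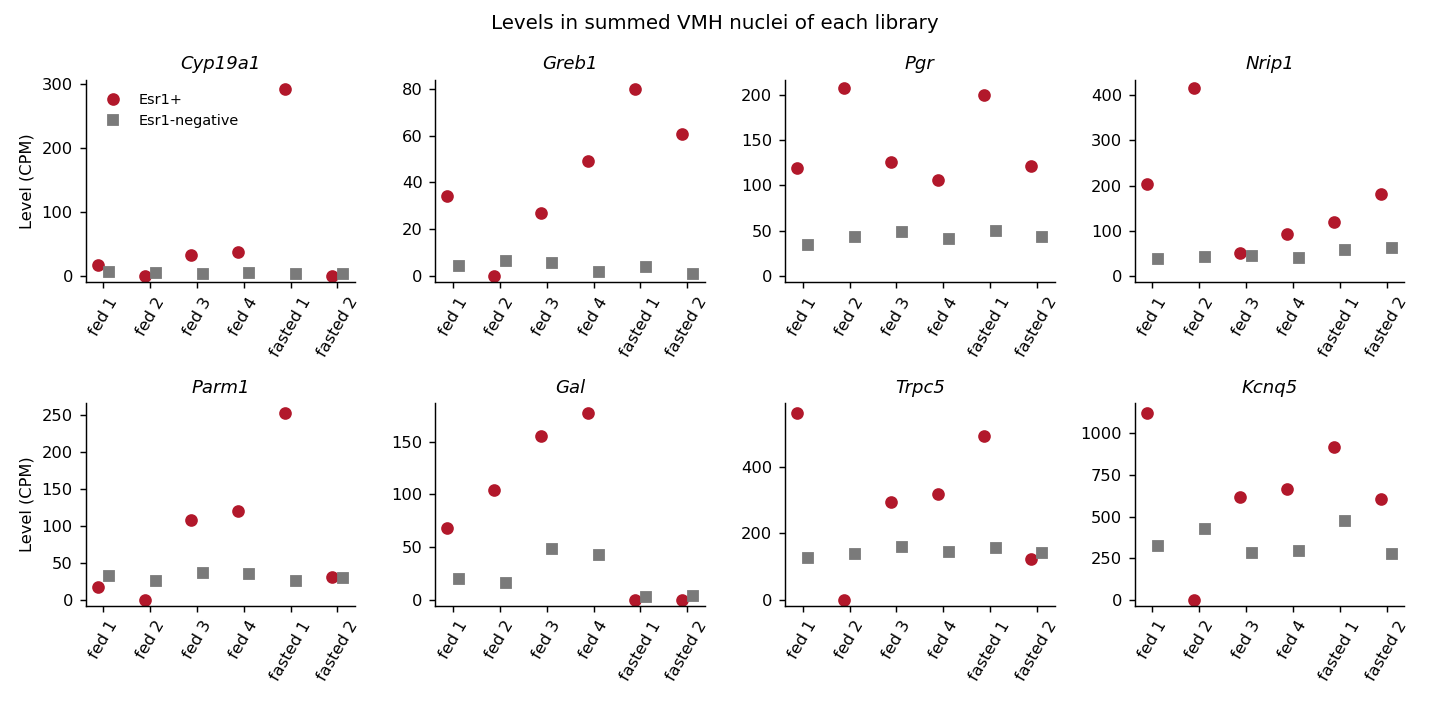
Level in CPM of 8 genes called between Esr1+ (red circles) and Esr1-negative (grey squares) VMH nuclei, 1 point per library, fed libraries 1 to 4 and fasted libraries 1 and 2. Pgr in Esr1+ nuclei lies above 106 CPM in each library and below 50.2 CPM in Esr1-negative nuclei, whereas Cyp19a1 reaches 293 CPM in fasted library 1 and is at 0 in fed library 2 and fasted library 2.

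The sequences just before the outermost annotated start of these 4 genes are shown because oestrogen receptor alpha and Nr5a1 both bind DNA at elements built on the same letters. Each window holds the 250 bases before the start on the strand of the gene, from RefSeq, build GRCm38.p6, and capitals mark the core motif GGTCA or its reverse complement TGACC. The windows are chr9:54268165-54268414 (minus strand) for Cyp19a1, chr12:16800887-16801136 (minus strand) for Greb1, chr9:8899583-8899832 (plus strand) for Pgr and chr16:76373828-76374077 (minus strand) for Nrip1.
Cyp19a1: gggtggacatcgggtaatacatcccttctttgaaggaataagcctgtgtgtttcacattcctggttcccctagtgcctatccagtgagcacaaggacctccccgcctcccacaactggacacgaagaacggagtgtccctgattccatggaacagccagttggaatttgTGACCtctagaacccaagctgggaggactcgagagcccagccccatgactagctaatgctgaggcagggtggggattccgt
Greb1: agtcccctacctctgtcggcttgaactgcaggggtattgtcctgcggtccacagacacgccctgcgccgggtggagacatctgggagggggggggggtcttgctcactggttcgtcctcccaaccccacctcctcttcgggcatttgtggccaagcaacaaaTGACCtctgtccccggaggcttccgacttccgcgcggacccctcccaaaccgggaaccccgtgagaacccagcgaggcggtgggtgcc
Pgr: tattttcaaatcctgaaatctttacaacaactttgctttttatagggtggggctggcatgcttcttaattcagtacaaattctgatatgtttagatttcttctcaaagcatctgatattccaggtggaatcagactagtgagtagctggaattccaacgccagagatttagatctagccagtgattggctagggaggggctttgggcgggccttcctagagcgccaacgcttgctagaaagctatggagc
Nrip1: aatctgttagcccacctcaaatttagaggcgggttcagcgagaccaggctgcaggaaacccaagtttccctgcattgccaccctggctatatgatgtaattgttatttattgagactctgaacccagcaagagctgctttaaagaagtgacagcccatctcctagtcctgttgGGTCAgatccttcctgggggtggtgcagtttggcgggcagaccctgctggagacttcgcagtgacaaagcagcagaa
Counting the other annotated starts of these genes, 5 of 8 windows held the core motif, which 35.2% of 32851 mouse promoter windows of the same length also hold. The full palindrome GGTCANNNTGACC was in 0 of the 8 windows and in 0.0639% of all, and CAAGGTCA, the longer site bound by Nr5a1, in 0 of the 8 and 1.33% of all, both strands searched. The core motif lies inside the other motifs. A match describes the letters of the window and not binding.

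The genes known from the ventrolateral VMH were higher in part. Of 17 listed genes, 13 were tested, 10 lay above 0 and 3 passed: Pgr, Greb1 and Plagl1, a zinc finger transcription factor (log2 difference 1.26, edgeR adjusted p = 0.011, with 1.0 without fed library 4 and 0.26 without fasted library 1). The median log2 difference was 0.495, against -0.0354 over all genes tested. Of all 14680 genes, 6215 lay above 0 and 0.375% were called higher. Tac1, the substance P precursor of ventrolateral neurons, had a log2 difference of -0.00. In GABAergic nuclei, all 17 listed genes were tested between Esr1+ and Esr1-negative nuclei. There 12 lay above 0, 6 were called higher and 1 lower, with a median of 0.2497. Over all genes tested in GABAergic nuclei, 1.22% were called higher and the median was -0.009. The difference between the VMH and GABAergic values passed above 0 for 0 of the 17 and below 0 for 1. Whether the list marks a ventrolateral origin of the Esr1+ VMH nuclei was not tested. Isl1, Qrfpr, Parm1 and Angpt1 are called genes that were chosen here after their values were seen.

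Parm1, which encodes a mucin-like membrane protein, stood at 17.0, 0, 108 and 120 CPM in the fed and 253 and 30.3 CPM in the fasted libraries in Esr1+ nuclei. Esr1-negative values were 25.4 to 36.1 CPM, so 3 libraries lay clearly above, 1 within and 2 below that range. Parm1 differed by 1.73 ± 0.22 on the log2 scale (SE; edgeR, adjusted p = 5.2e-11), and 43 of 83 nuclei had a UMI. Isl1, a LIM homeodomain transcription factor, stood at 73.0 against 30.8 CPM (1.21 ± 0.26, adjusted p = 0.0008, with 0.062, 0.23 and 0.14 without fed library 1, fed library 3 and fasted library 1). Qrfpr, the receptor of the peptide 26RFa, stood at 96.0 against 40.5 CPM (1.21, adjusted p = 8.2e-05, with 0.13 without fed library 4 and 0.62 without fasted library 1), and Angpt1, the ligand of the receptor Tie2, at 49.0 against 12.6 CPM (1.78, adjusted p = 0.00012, and 1.0 without fed library 4).

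Among 23 neuropeptide and granin genes, 21 were tested and 2 were called, both higher, with a median log2 difference of -0.0033. Over all genes tested, 0.375% were called higher and the median was -0.0354. Gal, which encodes the peptide galanin, stood at 68.1, 104, 156 and 178 CPM in Esr1+ nuclei of the fed libraries and was not counted in either fasted library. In Esr1-negative nuclei it stood at 19.8, 15.9, 47.8 and 42.2 CPM in the fed and 2.3 and 3.2 CPM in the fasted libraries. Within each fed library the Esr1+ value was the higher one, and in both fasted libraries, with 8 Esr1+ nuclei together, it was not. The log2 difference was 1.84 ± 0.23 (SE; edgeR, adjusted p = 8.4e-12), against an adjusted p of 0.21 with DESeq2. Gal was seen in 40 of 83 nuclei, and 22.9% of its UMIs came from 1 nucleus.

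Nts, the neurotensin precursor, passed as well (112 against 31.8 CPM, log2 difference 1.52, edgeR adjusted p = 1.5e-06) but was higher in only 1 of 6 libraries. Its Esr1+ values were 0, 0, 21.0 and 214 CPM in the fed and 0 and 0 in the fasted libraries, with 37.5% of its UMIs in 1 nucleus. Avp, the vasopressin gene of paraventricular and supraoptic neurons, stood at 102, 311, 1535 and 151 CPM in the fed and 53.2 and 0 CPM in the fasted libraries in Esr1+ nuclei. Of its UMIs, 77.3% came from 1 nucleus of fed library 3, and without that nucleus the ratio of Esr1+ to Esr1-negative level was 0.666. The call of Avp (1.11, edgeR adjusted p = 5.5e-05) was lost without fed library 1 (0.48), fed library 3 (1.0) or fasted library 1 (0.43). Nts and Avp both turned below 0 with Fezf1 plus Nr5a1 of at least 3 UMIs. Oxt, the oxytocin gene of the same neurons, was lower at 143 against 564 CPM (-2.28 ± 0.25, edgeR adjusted p = 4.7e-16, and 1.0 with DESeq2). Oxt was nevertheless seen in a larger share of Esr1+ nuclei, 69.9% at a median depth of 11327 UMIs, than of Esr1-negative nuclei, 57.0% at 9436 UMIs, and in 9.16% of oligodendrocyte nuclei at 2455 UMIs. Its level ranged from 8.9 to 867 CPM between libraries of Esr1-negative nuclei. Over all 55 genes called higher, 7 had more than 50% of their UMIs from 1 nucleus, and 51 kept a ratio above 1 without the nucleus that held most of theirs.

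Of 35 ion channel genes of neuronal excitability, all tested, 2 were higher and 3 lower, with a median log2 difference of -0.124. Beside these, 0.375% of all genes tested were called higher and 0.245% lower, with a median of -0.0354. Trpc5, a cation channel opened downstream of G-protein-coupled receptors, stood at 562, 0, 294 and 316 CPM in the fed and 492 and 121 CPM in the fasted libraries in Esr1+ nuclei. Esr1-negative values were 124 to 159 CPM, so 4 of 6 Esr1+ values lay above that range. The log2 difference was 1.21 ± 0.17 (SE; edgeR, adjusted p = 7.7e-09), with an adjusted p of 0.67 without fed library 1, 0.34 without fed library 4 and 0.11 without fasted library 1. Kcnq5, a subunit of the M-type potassium current, stood at 1124, 0, 617 and 667 CPM in the fed and 918 and 606 CPM in the fasted libraries, against 276 to 474 CPM in Esr1-negative nuclei. Apart from the single nucleus of fed library 2, every Esr1+ value of Kcnq5 was above all Esr1-negative ones (1.09 ± 0.16, edgeR adjusted p = 6.2e-08, and 1.0 without any 1 of fed libraries 1, 3 and 4). With Fezf1 plus Nr5a1 of at least 3 UMIs, the difference of Kcnq5 turned to -0.66.

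The 3 lower channel genes all encode potassium channels. Kcnj3, a subunit of the inward rectifier opened by G proteins, stood at 114 against 207 CPM (log2 difference -0.84, edgeR adjusted p = 0.0065). Kcnb2, of the delayed rectifiers, had a log2 difference of -0.65 (adjusted p = 0.031) and Kcnh7, of the ERG family, one of -0.60 (adjusted p = 0.0027). None of the 3 passed without fed library 1, 3 or 4 or fasted library 1 (adjusted p of 0.059 to 1.0), and Kcnj3 missed also without fed library 2 (0.051) or fasted library 2 (0.058).

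Of 24 genes of glutamate receptors, 23 were tested, Grm8 was higher and Grm5 lower, and the median was -0.0034. The shares called over all genes tested were 0.375% higher and 0.245% lower, with a median of -0.0354. Grm5, the metabotropic receptor mGluR5, stood at 1244, 1765, 1532 and 1253 CPM in the fed and 1171 and 1061 CPM in the fasted libraries in Esr1+ nuclei. Esr1-negative values ran from 1746 to 2140 CPM, so 5 of 6 Esr1+ values lay below that range and all 6 were below their own library's Esr1-negative value. The log2 difference was -0.70 (edgeR, adjusted p = 0.015), beside 5.87% of all genes tested that were lower in all 6 libraries. Grm8, an inhibitory presynaptic receptor, passed narrowly (0.61, adjusted p = 0.05). Neither passed once any 1 library was left out, with adjusted p-values from 0.056 to 1.0 for Grm5 and from 0.051 to 1.0 for Grm8, which also turned to -0.0866 with Fezf1 plus Nr5a1 of at least 3 UMIs. Of 14 subunits of the GABA-A receptor, 13 were tested and 0 passed with edgeR or DESeq2, where edgeR called 0.620% of all genes. Of these, 11 lay below 0 and 5 were lower at an unadjusted p under 0.05, with a median of -0.287, beside 8461 of all 14680 genes below 0 and 455 lower at that p.

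Of 36 listed cadherin and axon guidance genes, 35 were tested, 4 were called lower and 0 higher, and the median log2 difference was -0.286. Over all genes tested, 0.245% were called lower and 0.375% higher, with a median of -0.0354. At an unadjusted p under 0.05, 11 of them were lower and 4 higher, beside 455 lower and 254 higher of all 14680 genes. Cdh13, a cadherin anchored to the membrane without a cytoplasmic tail, stood at 409, 623, 390 and 363 CPM in the fed and 652 and 394 CPM in the fasted libraries in Esr1+ nuclei, against 774, 668, 576, 575, 870 and 929 CPM in Esr1-negative nuclei. Each library's Esr1+ value was the lower one, but the ranges overlapped (log2 difference -0.76, edgeR adjusted p = 0.0041). Epha5, a receptor of ephrins, stood at 816 against 1177 CPM (-0.82, adjusted p = 0.0014), and Ntng1, which encodes netrin-G1, at 254 against 389 CPM (-0.70, adjusted p = 0.00086). The Slit receptor gene Robo1 had a log2 difference of -0.49 (edgeR, adjusted p = 0.038). None of the 4 passed without fed library 1, 3 or 4 or fasted library 1 (adjusted p of 0.059 to 1.0), and Robo1 missed also without fed library 2 (0.073).

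The lower genes did not all stand below other glutamatergic nuclei, those without a Fezf1 or Nr5a1 UMI. These had 389 CPM of Cdh13, 742 CPM of Epha5, 776 CPM of Kcnb2 and 1249 CPM of Grm5, near the Esr1+ levels of 400, 816, 843 and 1338 CPM. For Ntng1 (540 CPM), Robo1 (737 CPM) and Kcnj3 (218 CPM) they stood above the Esr1+ nuclei, at 254, 461 and 114 CPM. Among the higher genes they had 5.09 CPM of Cyp19a1, 9.36 CPM of Greb1, 52.0 CPM of Pgr and 41.7 CPM of Parm1, below the Esr1+ levels of 52.0, 43.0, 122 and 116 CPM. Not all of the higher genes stood apart in this way. Fstl5 was at 242 CPM in these other nuclei and 251 CPM in Esr1+ nuclei, and the long noncoding RNA Gm28905 at 297 and 222 CPM. The other glutamatergic nuclei were not selected by Esr1, and 424 of 9434 (4.49%) had at least 2 Esr1 UMIs. In these gaps, Esr1 and the VMH assignment cannot be told apart. These levels were not tested, and 62 of the 83 Esr1+ nuclei rest on 1 Fezf1 or Nr5a1 UMI.

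Other genes named by the size of their difference are less tied to one theme. Higher ones included Il1rap, the accessory protein of the interleukin-1 receptor and a synaptic adhesion partner. It stood at 102, 311, 39.0 and 87.8 CPM in the fed and 120 and 60.6 CPM in the fasted libraries, against 19.3 to 48.6 CPM in Esr1-negative nuclei, so that only fed library 3 fell within the Esr1-negative range (1.58 ± 0.25, edgeR adjusted p = 5.1e-07, and 0.41 without fed library 4). Galntl6, of the family that starts mucin-type glycans, stood at 2076 against 880 CPM (1.16 ± 0.17, adjusted p = 3.9e-08) and was higher in all 6 libraries, from 1610 to 3340 CPM against 787 to 1453 CPM in Esr1-negative nuclei. Its adjusted p was 0.32 without fasted library 1 and 1.0 without fed library 1, 3 or 4. The rule also named 3300002A11Rik, which overlaps Foxn3 on the opposite strand (1.41, edgeR adjusted p = 0.00017), and Gm28905 (0.82, adjusted p = 0.0014). Pcdh17, Mical2, Phactr1, Fstl5 and Ptprm followed with log2 differences of 0.64 to 0.96. With each library left out in turn, Pcdh17, Mical2 and Phactr1 passed in 2 of 6 fits, Ptprm in 1 and Fstl5 in 0 (adjusted p up to 1.0), DESeq2 called none of these 5, and all but Ptprm turned below 0 with Fezf1 plus Nr5a1 of at least 3 UMIs.

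Lower ones included Rai14, which binds actin (10.0 against 33.3 CPM, log2 difference -1.70, edgeR adjusted p = 0.019), Deptor, the inhibitor of the kinase mTOR (37.0 against 70.9 CPM, -0.98, adjusted p = 0.037), and Tenm2, a teneurin of synaptic adhesion (3034 against 4248 CPM, -0.79, adjusted p = 0.0088). Zfpm2, a partner of GATA factors, and Unc13c, a synaptic vesicle priming protein, had log2 differences of -0.92 and -0.80. Each of these 5 missed the threshold without at least 4 of the 6 libraries in turn, with adjusted p-values up to 1.0. The olfactory receptor gene Olfr889 was counted once in Esr1+ nuclei, a ratio of 0.0489 to its Esr1-negative level with a 95% counting interval of 0.0012 to 0.2748.

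Lists with no called gene, beside 0.620% called over all genes, were those of receptors for metabolic hormones and peptides (25 of 31 tested), immediate early genes (20 of 27), glucocorticoid-responsive genes (13 of 16), Foxo and fasting genes (10 of 18) and clock genes (14 of 14), each with 0 calls by edgeR and by DESeq2. At an unadjusted p of 0.05, 1 gene of the metabolic receptors was higher, 1 immediate early gene was higher and 1 lower, 2 clock genes were lower, and the other lists had none. Among the metabolic receptors, Npy5r, a receptor of neuropeptide Y, was the one nearest to a call (log2 difference 1.01, unadjusted p = 0.012, adjusted p = 0.60). Lepr, the leptin receptor, had a log2 difference of -0.90 (unadjusted p = 0.059), Mc4r, the melanocortin receptor, one of 0.41 and Insr, the insulin receptor, one of -0.08. Prlr, the prolactin receptor and a marker of arcuate neurons in these lists, stood at 162 against 104 CPM (0.66, adjusted p = 0.079).

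Markers of other cells were counted in both groups. The 6 oligodendrocyte markers summed to 102 CPM in Esr1+ and 114 CPM in Esr1-negative nuclei, with 466 CPM in fasted library 1 and 51.0 to 104 CPM in the other 5 libraries of Esr1+ nuclei. Astrocyte markers summed to 15 and 13.8 CPM and microglial markers to 19.0 and 22.8 CPM. Of the endothelial markers Cldn5, Flt1 and Slco1a4 were at 0 in Esr1+ nuclei. Markers of paraventricular neurons summed to 950 CPM in Esr1+ nuclei, of which Avp was 599, and to 960 CPM in Esr1-negative nuclei, of which Oxt was 564, with Crh at 0 in the Esr1+ nuclei. The 6 arcuate markers summed to 233 CPM in Esr1+ nuclei, of which Prlr was 162, and to 188 CPM in Esr1-negative nuclei, of which Prlr was 104, beside the Kiss1 and Gad2 levels given above. The part of these transcripts in the differences was not tested.

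For some genes the level was higher the more Esr1 UMIs a nucleus had. The nuclei at the threshold were grouped by 0 (1479 nuclei), 1 (190), 2 (49) and at least 3 Esr1 UMIs (34), which is a description because Esr1 formed the groups. Cyp19a1 stood at 3.71, 10.0, 40.3 and 66.1 CPM in that order, Parm1 at 33.3, 48.1, 82.4 and 156 CPM, and Pgr at 44.0, 57.2, 106 and 141 CPM. The 2 higher levels of Cyp19a1 rest on 22 and 30 UMIs, and 1 of them includes the nucleus of fasted library 1 described above. Whether the rise holds without that nucleus was not examined. Greb1, at 3.64, 10.5, 44.0 and 41.9 CPM, and Gal, at 33.7, 35.6, 134 and 156 CPM, differed mainly between 1 and 2 Esr1 UMIs. Gpr149, a VMH gene for an orphan receptor, ran the other way with 148, 115, 93.4 and 83.7 CPM, as did Nr5a1 with 57.5, 44.6, 45.8 and 17.6 CPM. Gpr149 did not pass between Esr1+ and Esr1-negative nuclei (edgeR, adjusted p = 0.11).

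**Figure D3:**
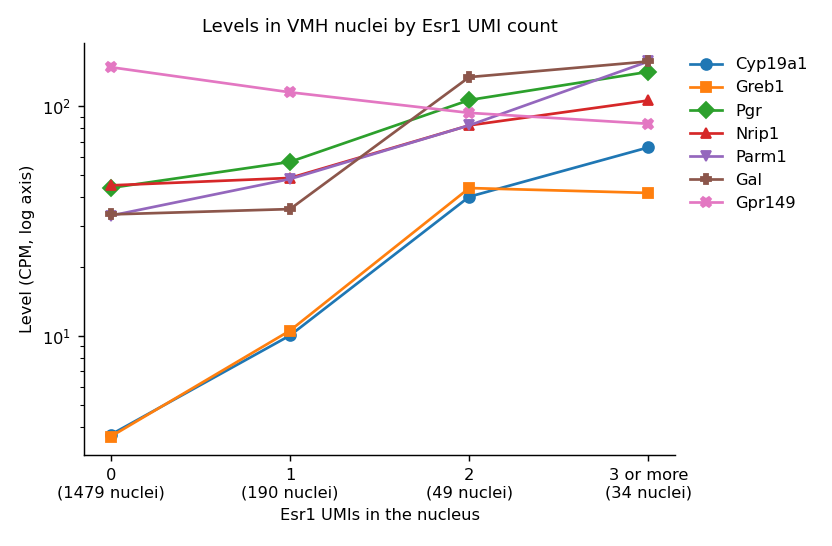
Level in CPM (log axis) of 7 genes in VMH nuclei grouped by their number of Esr1 UMIs: 0 (1479 nuclei), 1 (190), 2 (49) and 3 or more (34), all libraries summed. Cyp19a1 runs from 3.71 to 66.1 CPM and Gpr149 from 148 to 83.7 CPM.

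Transcripts seen in the same Esr1+ nuclei were counted. Of Cyp19a1, Greb1 and Pgr, 32 nuclei had no UMI, 30 had 1 of the genes, 12 had 2 and 9 had all 3. Among the 16 nuclei with Cyp19a1, 13 had Pgr (81.25%) and 9 had Greb1 (56.25%), against 30 (44.8%) and 13 (19.4%) of the 67 nuclei without it, at median depths of 10315.5 and 11455 UMIs. Among the 22 nuclei with Greb1, 19 had Parm1 (86.4%), against 24 of the other 61 (39.3%), at median depths of 9781.5 and 11455 UMIs. Of 14 nuclei with Nts, 11 had Gal (78.6%), against 29 of the other 69 (42.0%), but these 14 were deeper (median 13976.5 against 10729 UMIs) and all came from fed libraries 3 and 4, where Gal was seen in 16 of 28 and 21 of 38 nuclei. Tac1 did not follow Cyp19a1, which was seen in 7 of 36 nuclei with Tac1 and in 9 of 47 without. These shares count nuclei from 6 libraries that are not replicates, and a gene with no UMI in a nucleus may still have been transcribed.

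Whether the same genes go with Esr1 outside the VMH was asked in GABAergic nuclei, a comparison added after the VMH results were seen. There 489 nuclei with at least 2 Esr1 UMIs were set against 4818 with none, and of 17890 genes tested 444 passed (2.48%), 218 higher (1.22%) and 226 lower (1.26%). Greb1 was higher in both settings, at 28.6 against 4.36 CPM in GABAergic nuclei (log2 difference 2.70, edgeR adjusted p = 1.5e-12). Pgr was higher at 105 against 44.7 CPM (1.24, adjusted p = 3.9e-13) and Nrip1 at 63.6 against 36.9 CPM (0.79, adjusted p = 7.3e-07). For these 3 the difference between the VMH and the GABAergic contrast did not pass (edgeR, adjusted p = 0.67, 1.0 and 0.93), which does not show that the contrasts are equal. Of the 55 genes higher in Esr1+ VMH nuclei, 54 were tested in GABAergic nuclei and 20 were also called higher there, 36.4% of the VMH list and 9.17% of the GABAergic one. Of the 36 lower genes, 8 were also called lower, 22.2% of the VMH list and 3.54% of the GABAergic one.

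Cyp19a1 differed between the 2 settings. In GABAergic nuclei it was counted 3 times with Esr1 (0.660 CPM) and 59 times without (1.49 CPM), a ratio of 0.444 with a 95% counting interval of 0.0889 to 1.36. The fitted log2 difference was -1.11 there against 3.92 in the VMH, and the difference of 5.01 between them passed (edgeR, adjusted p = 2.7e-05). Parm1 (0.18 in GABAergic nuclei, adjusted p of the difference 3.9e-07), Kcnq5 (-0.24, 6.7e-12), Galntl6 (-0.03, 3e-10), Trpc5 (0.31, 0.0011), Isl1 (-0.07, 0.0002) and Il1rap (0.54, 0.019) also differed more in the VMH. For Gal, with 1.02 in GABAergic nuclei, the difference missed the threshold (adjusted p = 0.053). Of the 17935 genes tested for this difference, 130 passed (0.725%), 64 above 0 (0.357%) and 66 below 0 (0.368%). They included 28 of the 55 genes higher and 16 of the 36 genes lower in Esr1+ VMH nuclei, the latter with Oxt, Cdh13, Kcnj3, Tenm2, Ntng1, Epha5 and Grm5. As these genes were called on the same VMH values, the choice favours such a difference. Prlr, not called in the VMH, was higher in Esr1+ GABAergic nuclei (1.16, adjusted p = 7.4e-13), and the difference between the settings did not pass (edgeR, adjusted p = 0.0554).

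**Figure D4:**
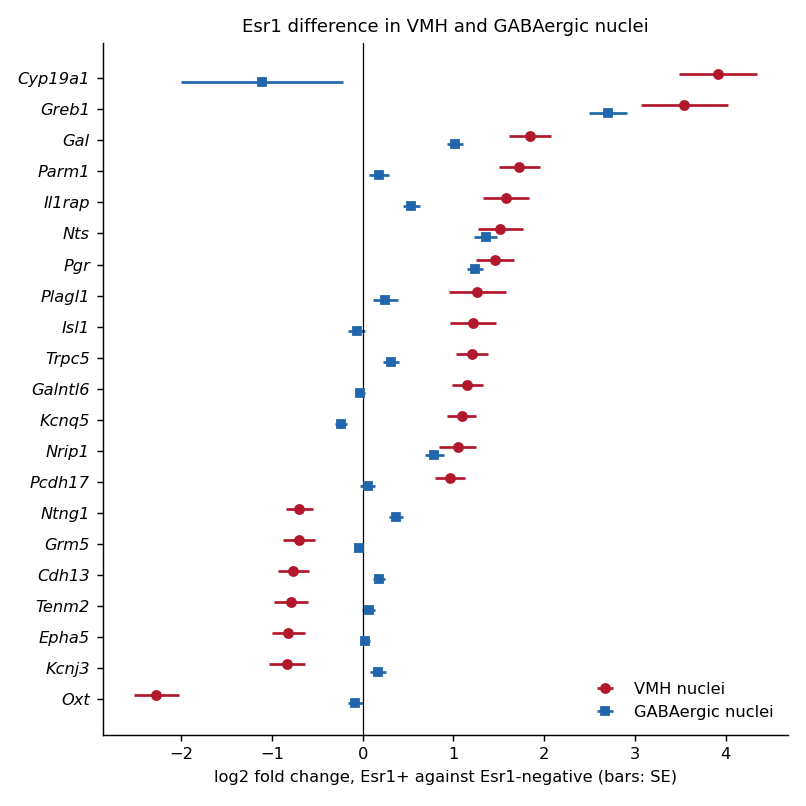
Log2 difference between Esr1+ and Esr1-negative nuclei, with a standard error derived from the F statistic, for 21 genes in VMH (red circles) and GABAergic nuclei (blue squares). Greb1, Pgr and Nrip1 lie above 0 in both, whereas Cyp19a1 is at 3.92 in the VMH and at -1.11 in GABAergic nuclei.

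The response of Esr1+ VMH neurons to an overnight fast was the comparison the study design offers, but only 8 nuclei from 1 fasted pool stand against 75 fed ones. Of 6295 genes tested, 0 passed with edgeR (0 higher and 0 lower) and 0 with DESeq2, while 310 had an unadjusted p under 0.05, 51 of them higher and 259 lower in fasted libraries. Genes entered this test mainly through the counts of fed libraries 3 and 4 (1661 and 1652 genes remained without one or the other), so lower values in fasted libraries are favoured by the filter, and the fit has 1 residual degree of freedom with the fasted arm 1 pool. The edgeR result keeps the largest p over the possible poolings of the fed libraries, whose separate counts differ widely and are given under the processing. Fed libraries 3 and 4 stood apart from all others in these nuclei. Ribosomal protein genes took 0.523%, 0.426%, 1.74% and 1.60% of UMIs in Esr1+ nuclei of fed libraries 1 to 4, and 0.264% and 0.267% in fasted libraries 1 and 2, whereas Esr1-negative nuclei had 0.385%, 0.427%, 1.62%, 1.74%, 0.280% and 0.272% in the same order. Both fasted libraries were below all fed ones, but fed libraries 1 and 2 lay far closer to them than to fed libraries 3 and 4. Against fed libraries 3 and 4 alone 495 of 6288 genes passed. Fed libraries 1 and 2 hold 8 and 1 Esr1+ nuclei, which left 878 genes to test, and that 0 of them passed with edgeR (32 at an unadjusted p under 0.05) cannot be read as a lack of difference. If fed libraries 3 and 4 share a pool, the comparison with them alone sets 1 pool against 1 and has no replicate pools. Fasting and the difference between the fed libraries cannot be told apart where they point the same way.

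Neuropeptide genes had lower fitted values in fasted Esr1+ nuclei without a call. All 12 tested lay below 0, with a median log2 difference of -1.92 (-1.81 with genes at 0 set to the floor of 3 counts per group), against -0.022 over all genes, but as they passed the filter mainly through fed libraries 3 and 4 this is a description. Tac1 stood at 85.2, 311, 156 and 235 CPM in the fed and 13.3 and 30.3 CPM in the fasted libraries. Scg2, the secretogranin of dense core vesicles, stood at 256, 1453, 638 and 796 CPM in the fed and 213 and 30.3 CPM in the fasted libraries. Both genes were lower in each fasted library than in any fed one. Summed over the 23 peptide and granin genes, Esr1+ nuclei had 698, 2492, 2038 and 2921 CPM in the fed and 546 and 364 CPM in the fasted libraries. Esr1-negative nuclei had 632, 764, 2240, 2304, 497 and 388 CPM, where fed libraries 1 and 2 were again near the fasted ones. Gal was at 0 in both fasted libraries of Esr1+ nuclei, at least 5.82-fold lower than in the fed ones with the floor of 3 counts over the group. Markers of other cells were also away from 0 without a call. The median log2 difference was -3.53 for 4 paraventricular markers and 2.06 for 2 oligodendrocyte markers. For 2 lateral hypothalamic markers it was -2.31 with genes at 0 set to that floor. In Esr1-negative nuclei these medians were -3.64, 0.804 and -2.48, over 5, 6 and 2 markers. The part of these transcripts in the neuropeptide values was not tested.

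**Figure D5:**
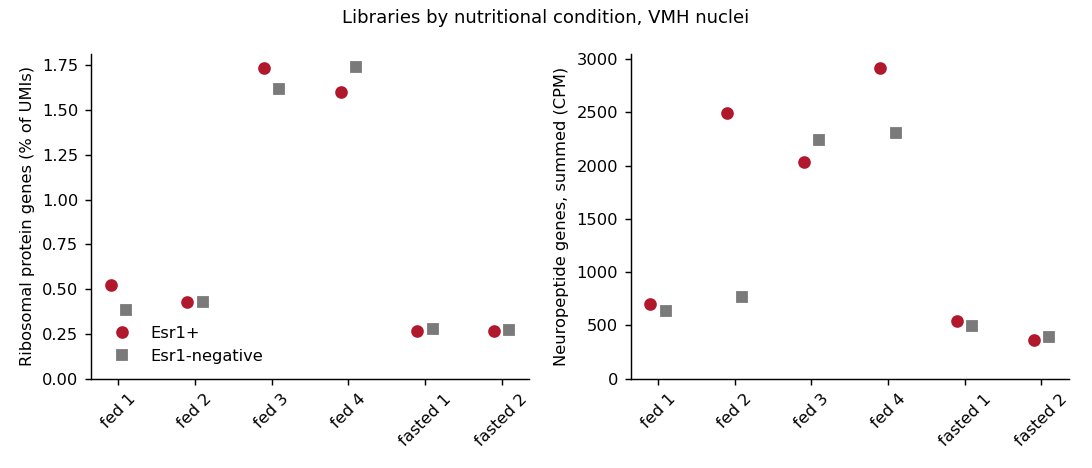
Share of UMIs from ribosomal protein genes in percent (left) and summed level of 23 neuropeptide and granin genes in CPM (right) for each library, in Esr1+ and Esr1-negative VMH nuclei. Fed libraries 3 and 4, at 1.60% to 1.74% ribosomal UMIs, stand apart from fed libraries 1 and 2 and from the fasted libraries.

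Among genes with both fasted libraries above all fed ones and at least 20 CPM, those with the highest fitted values were Max, Osbpl2, Mpped2, Snrnp40, Tdrd3, Hs3st5, Aatf and Fhit, with log2 differences of 1.94 to 2.07 and adjusted p-values of 0.938. Hs3st5, a heparan sulphate sulphotransferase, stood at 51.1, 104, 144 and 114 CPM in the fed and 439 and 212 CPM in the fasted libraries. Fhit, a diadenosine triphosphate hydrolase, stood at 51.1, 104, 71.9 and 71.4 CPM in the fed and 226 and 273 CPM in the fasted libraries. Such separation was common: both fasted libraries lay above all 4 fed ones for 8.26% and below all of them for 7.69% of the genes tested. On the lower side, Nenf, Spcs1, Ndufa5, Tmem60, Cdc37, Ndufa1 and Cbr1 were at 0 in the fasted nuclei, at least 10.1-fold lower for Nenf and at least 2.42-fold lower for Cbr1. Fed libraries 3 and 4 carried the bound of Nenf, with 300 and 302 CPM against 34.1 and 104 CPM in fed libraries 1 and 2, where the floor is 27.7 CPM.

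Cyp19a1 had 203 CPM in fasted and 33.6 CPM in fed Esr1+ nuclei, all of the fasted counts in 2 of the 6 nuclei of fasted library 1 (log2 difference 2.83, edgeR adjusted p = 0.94). In Esr1-negative nuclei 0 of 14464 genes passed between fasted and fed libraries with edgeR, 160 had an unadjusted p under 0.05, and DESeq2 called 1. This 0 comes from the largest p over the poolings of the fed libraries, which called 0, 5119 and 5186 genes each on its own. Whether fasting acted differently on the 2 groups of VMH nuclei was tested as an interaction, which 1 of 14680 genes passed (0.00681%). This was Gm11470, a pseudogene, with 91.7% of its Esr1+ UMIs in 1 nucleus of fasted library 1, and the call was lost without that library.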

How the data were processed

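Nuclei from 6 hypothalamic libraries were profiled with 10x nucSeq. The authors mapped reads to mm10 with Cell Ranger 5.0.1 and deposited raw UMI counts per gene and barcode, in which 3′ capture means that levels are not comparable between genes. Nuclei with at least 1000 UMIs were kept (library medians 4431 to 8831.5 UMIs). Doublets were scored with Scrublet (scanpy 1.11.5), the top 5% of each library being marked and left in. For each group of nuclei, counts were summed per pool and tested with edgeR 4.0.16 (TMM, quasi-likelihood, R 4.3.3), with pool as block for contrasts within pools. Genes were tested if 2 or more libraries held 10 or more of their counts. As the fed pools are not labelled, each of the 3 possible poolings was fitted. The largest p per gene was kept and Benjamini-Hochberg adjusted over all genes, and the log2 difference and SE are those of that fit. The edgeR test gives no SE, so the SE is the absolute log2 difference divided by the square root of the F statistic. Each pool mixed 6 mice, and its 2 libraries are technical repeats.

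Genes named by rule were up to 15 per direction with an adjusted p of at most 0.05, the same sign in all 6 libraries and at least 20 CPM in the higher group. For fasting, up to 8 per direction were named by log2 difference, where both fasted libraries lay beyond all fed ones. Called genes of the lists were named too. Members and lists were chosen with earlier results of these data known. Alternatives included DESeq2 1.42.0, no filter, each pooling, libraries as samples, marked doublets left out, nuclei matched or thinned to 2000 UMIs, stricter Esr1 or VMH thresholds and each library left out. The test scripts were tested on simulated data. Gene positions and promoter windows are those of GRCm38. Intervals cover counting error only.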

Additional observations from a re-analysis of the deposited data

Results flagged for a closer look

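In 3 of 23 named genes of the contrast between Esr1+ and Esr1-negative nuclei, 1 fed library lay far from the other 3 in its log2 difference at CPM plus 10. The gap divided by the range was 0.912 for Zfpm2, 0.955 for Epha5 and 0.894 for Megf11, a receptor-like adhesion gene. With 4 libraries about 1 group in 20 is set apart in this way by chance. Fed library 2, with 1 Esr1+ nucleus, stood apart for Zfpm2 (0 CPM in that nucleus) and Epha5 (311 CPM). For Megf11 it was fed library 1, with 8 Esr1+ nuclei and 0 CPM. Gm11470, a pseudogene, was the 1 gene whose fasting effect differed between Esr1+ and Esr1-negative VMH nuclei, by 8.53 on the log2 scale (edgeR interaction, adjusted p = 7.8e-08), with 91.7% of its Esr1+ UMIs in 1 nucleus of fasted library 1, without which it was not called.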

How the results depend on the processing

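Between Esr1+ and Esr1-negative VMH nuclei, the 91 calls became 12 with DESeq2, 179 with fed libraries 1 and 3 (2 and 4) pooled, 144 with 1 and 4 (2 and 3) pooled, 14 with Esr1 of at least 4 UMIs, 2 with Fezf1 plus Nr5a1 of at least 3 UMIs, which left 6 Esr1+ nuclei, and 0 without the pool block. Leaving out 1 library gave 19 to 82. No filter (83), marked doublets left out (71), libraries as samples (102), nuclei matched on total UMIs (79) and pooling of 1 with 2 (98) stayed within 1.5 times. With those 6 nuclei the log2 difference turned to -0.0871 for Pgr, -0.262 for Pcdh17, -1.28 for Mical2, -1.03 for Phactr1, -0.471 for Fstl5, -7.17 for Nts, -0.0866 for Grm8, -0.659 for Kcnq5 and -0.107 for Avp. Avp ran from -0.137 (without fed library 3) to 1.71 (without fed library 4) with 1 library left out and turned to -0.779 with Esr1 of at least 4 UMIs. The cause was not tested.

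The difference in the Esr1+ share turned from -1.92 to 1.96 points with Fezf1 plus Nr5a1 of at least 3 UMIs and ran from -3.15 to -0.876 with 1 library left out. Thinned to 2000 UMIs, 0 nuclei met the rule, so the share at 2 Esr1 UMIs could not be compared. With at least 1 Esr1 UMI after thinning, the mean share was 5.18% in the fed and 0% in the fasted libraries. That difference of -5.18 points (exact permutation test over libraries, p = 0.2667) compares with -0.0563 points without thinning. It rests on 8 of 207 VMH nuclei, with 0 of 16 and 0 of 11 in fasted libraries 1 and 2.

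For fasting in Esr1+ nuclei, the 0 calls became 70 with no filter, 393 and 767 with the poolings of 1 with 3 and 1 with 4, 185 with libraries as samples, 43 with Fezf1 plus Nr5a1 of at least 3 UMIs and 495 against fed libraries 3 and 4 alone. It stayed at 0 with each library left out. In Esr1-negative nuclei, the 0 calls became 1 with DESeq2, 306 with no filter, 5119 and 5186 with those poolings and 58 with the stricter VMH threshold. For the difference of the fasting effect, the 1 call became 10 and 6 with those poolings, 3 with libraries as samples and 1 to 3 with a library left out. Without fasted library 1, and with the stricter VMH threshold, Gm11470 was not among the calls. Pooling 1 with 2 gave 0, 0 and 1 calls in these 3 comparisons.

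Fed and fasted libraries of the same number come from different mice and share only the number. With the replicate number as a block, 0 genes were called in Esr1+ nuclei and 1525 in Esr1-negative nuclei, where deviations of same-numbered fed and fasted libraries correlated at -0.0218 (number 1) and -0.0017 (number 2) across genes.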
